A study of Homo sapiens with 3 samples.

Results

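The 8 genes described here encode transcription factors that mark or specify prostate and basal epithelial lineages: TP63, SOX2, SOX9, FOXA1, HOXB13, GATA2, GATA3 and FOXC1. They were taken by name from the 58037 genes of the count table, and each was found in it once. The table came from RWPE1, an immortalized line of human prostate epithelial cells, and held 3 bulk RNA libraries with 1 library per group. One was labelled OLFM4-wild, one OLFM4-knockout and one OLFM4-active, OLFM4 being a secreted glycoprotein of the olfactomedin family. The study made GFP-marked RWPE1 lines with CRISPR/Cas9 plasmids, using double nickase plasmids for the knockout, and its methods mention OLFM4 activation plasmids for the OLFM4-wild reporter cells as well. The labels do not say whether each library came from a single clone or from a mixed line, nor how the OLFM4-active cells differ from the OLFM4-wild reporter cells. The methods state that the RNA came from RWPE1 cells sorted for GFP. No animal or donor tissue was sampled.

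The targeted gene went against one of the labels. OLFM4 had 214, 131 and 16 counts in the wild library, the knockout library and the library labelled active, or 11.8, 2.55 and 0.670 CPM, counts scaled to a common library size. The groups are called wild, knockout and the library labelled active below, and no direction below is read as an effect of more OLFM4. Library totals were 16309906, 58837147 and 23224216 counts in the order wild, knockout and labelled active, and the smallest level treated as detected, 3 counts, was 0.165, 0.0584 and 0.126 CPM. CPM values were scaled with TMM, a trimmed mean that sets the bulk of genes equal between libraries. Relative to plain totals TMM moved every log2 fold change up by 0.35 (knockout against wild), 0.11 (labelled active against wild) or 0.24 (knockout against labelled active), so values with totals are given for the 8 genes and for the medians where the sign depends on it. Brackets hold exact 95% Clopper-Pearson intervals, which cover counting error only. With 1 library per group no test between conditions was possible, each comparison is between 2 libraries, and both comparisons with the wild library share that library. In bulk RNA, fewer cells of a type and less RNA per cell cannot be told apart.

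Transcription factors of this kind bind regulatory DNA and hold an epithelial cell in its lineage. p63, the product of TP63, is the master regulator of basal and stratified epithelia and is the classic nuclear marker of prostate basal cells. FOXA1, a pioneer factor that opens chromatin, works with HOXB13 and GATA2 to run the luminal, secretory programme of the prostate. GATA3 acts in luminal cells of breast, bladder and prostate and also in keratinocytes. SOX9 is active in progenitor cells of many epithelia and in cartilage, SOX2 in pluripotent and neural stem cells and in some basal cells, and FOXC1 in mesenchyme, eye and basal-like epithelial cells.

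GATA2 and GATA3 were the only 2 of the 8 genes that lay past a log2 fold change of 1, in the same direction and at a mean level of 1 CPM or more, in both comparisons against the wild library, so the DNA just upstream of their starts is shown for context. The 250 bases before a RefSeq start of each gene (GRCh38.p14, promoter entries were matched for 6 of the 8 genes) are printed 5′ to 3′ on the strand of the gene, with CpG dinucleotides, the sites of DNA methylation, in capitals. GATA2 is read from chr3:128493202-128493451 on the minus strand and GATA3 from chr10:8045083-8045332 on the plus strand.
GATA2: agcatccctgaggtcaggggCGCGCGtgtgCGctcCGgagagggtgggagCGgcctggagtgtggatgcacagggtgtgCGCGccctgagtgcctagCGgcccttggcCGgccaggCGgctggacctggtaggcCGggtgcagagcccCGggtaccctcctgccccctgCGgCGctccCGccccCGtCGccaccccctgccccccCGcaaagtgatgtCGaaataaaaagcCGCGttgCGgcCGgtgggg
GATA3: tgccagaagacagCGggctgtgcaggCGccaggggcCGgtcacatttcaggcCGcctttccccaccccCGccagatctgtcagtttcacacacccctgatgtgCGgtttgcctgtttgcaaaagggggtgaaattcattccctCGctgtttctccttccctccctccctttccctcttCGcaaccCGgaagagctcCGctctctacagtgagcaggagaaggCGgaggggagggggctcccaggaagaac
The GATA2 window has 72.8% G and C and 24 CpG sites. The GATA3 window has 60.8% G and C and 11 CpG sites, against medians of 58% and 11 over 35116 windows of the same length. RefSeq lists 2 starts for GATA2 and 6 for GATA3, and only 1 window of each is shown. Neither window, on either strand, holds the GATA motifs AGATAA or TGATAA, which occur in 9.17% and 6.66% of all windows, the E-box CACGTG (6.34%), the CCAAT box CCAAT (32%) or the TATA box TATAAA (10.7%). The GATA motifs share the letters GATAA. The absence of these letters from these windows says nothing about which factors bind the genes.

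TP63 spans 189631389 to 189897276 of chromosome 3 (plus strand, GRCh38). It was by far the most abundant of the 8 genes, and its level was close in the 3 libraries. It had 7514 counts in the wild library (414 CPM, 404 to 423), 24244 in the knockout library (472 CPM, 466 to 478) and 10750 in the library labelled active (450 CPM, 441 to 459). The wild library was thus the lowest and the knockout library the highest, and no 2 of the intervals overlap. The log2 fold change of the library labelled active against wild was 0.12 (0.08 to 0.16) with TMM and 0.01 with totals. That of knockout against wild was 0.19 (0.15 to 0.23), but -0.16 if scaled by totals, and its sign rests on the scaling. Counts per gene do not separate the isoforms of TP63, the full-length TAp63 and the N-terminally truncated deltaNp63 that basal cells mainly use.

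**Figure D1:**
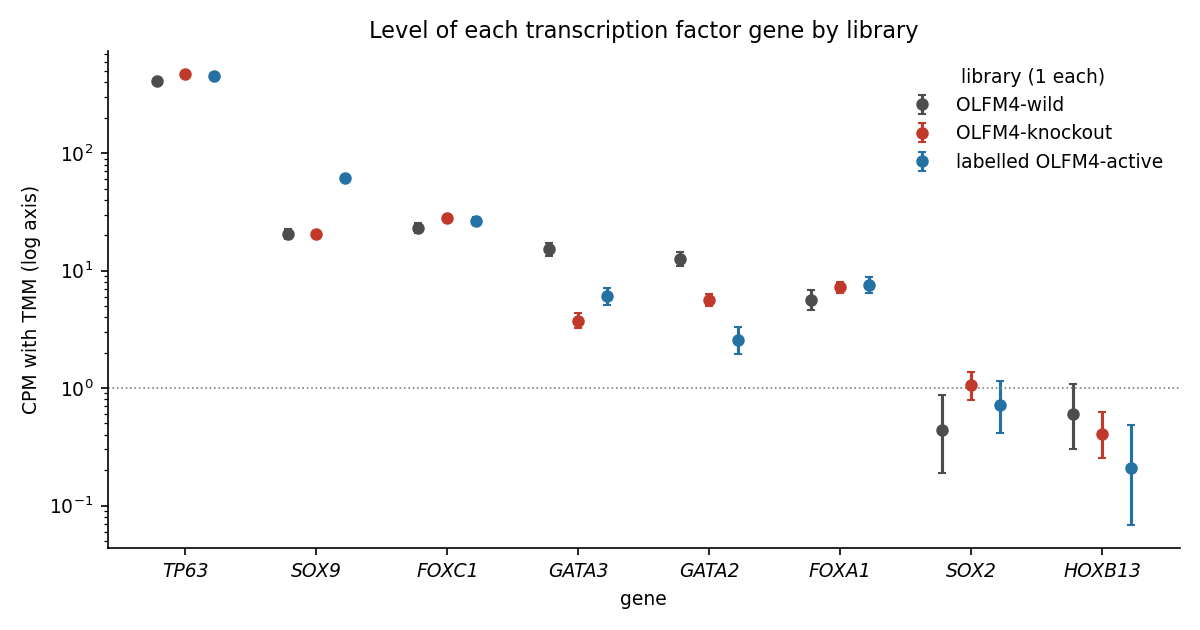
Level of each of the 8 transcription factor genes in CPM with TMM on a log axis, with 1 point per library (wild, knockout, labelled active) and 95% counting intervals as bars. TP63 sits between 414 and 472 CPM in all 3 libraries, SOX2 and HOXB13 near or under 1 CPM, and GATA2 and GATA3 are highest in the wild library.

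SOX9 stood apart in the library labelled active. The gene, which spans 72121020 to 72126416 of chromosome 17 (plus strand), had 372 counts in the wild library (20.5 CPM, 18.4 to 22.7), 1046 in the knockout library (20.4 CPM, 19.2 to 21.6) and 1468 in the library labelled active (61.4 CPM, 58.3 to 64.7). The wild and knockout libraries overlapped within counting error, and the library labelled active lay above both. The log2 fold change of the library labelled active against wild was 1.58 (1.42 to 1.75), and 1.47 with totals. For knockout against wild it was -0.01 (-0.18 to 0.17) with TMM and -0.36 with totals, and for knockout against the library labelled active -1.59 (-1.71 to -1.48).

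SOX2 was low, at about 1 CPM or less in every library. The gene, which spans 181711925 to 181714436 of chromosome 3 (plus strand), had 8, 54 and 17 counts in the wild, knockout and labelled active libraries, or 0.440 (0.190 to 0.868), 1.05 (0.790 to 1.37) and 0.712 (0.414 to 1.14) CPM. The knockout library was the highest, and the intervals overlap between each pair of libraries. The log2 fold change of knockout against wild was 1.18 (0.18 to 2.54), and 0.83 with totals. A difference between the library labelled active and either of the others was not detectable at this depth, with values of 0.65 (-0.60 to 2.11) against wild and, for knockout against it, 0.54 (-0.24 to 1.44).

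Both GATA genes were highest in the wild library, but their order among the other libraries was opposite. GATA2, which spans 128479427 to 128493201 of chromosome 3 (minus strand), had 229 counts in the wild library (12.6 CPM, 11.0 to 14.3), 287 in the knockout library (5.59 CPM, 4.96 to 6.28) and 61 in the library labelled active (2.55 CPM, 1.95 to 3.28). None of these intervals overlap. The wild level was 2.25 times the knockout level and 4.94 times the level in the library labelled active. The log2 fold changes against wild were -1.17 (-1.43 to -0.92) for knockout and -2.29 (-2.74 to -1.89) for the library labelled active, and knockout was above the latter by 1.12 (0.73 to 1.55), or 0.88 with totals.

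GATA3, which spans 8045378 to 8075198 of chromosome 10 (plus strand), had its lowest level in the knockout library. It had 276 counts in the wild library (15.2 CPM, 13.45 to 17.1), 193 in the knockout library (3.76 CPM, 3.25 to 4.33) and 145 in the library labelled active (6.07 CPM, 5.12 to 7.14). The knockout library, which was sequenced most deeply, thus held fewer GATA3 counts than the wild library. The log2 fold changes against wild were -2.01 (-2.29 to -1.74) for knockout, 4.04 times lower, and -1.32 (-1.62 to -1.03) for the library labelled active, 2.50 times lower. For knockout against the library labelled active it was -0.69 (-1.01 to -0.37), the sign opposite to that of GATA2.

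FOXA1 and HOXB13, the 2 factors of the luminal programme treated as a pair here, were low. FOXA1, which spans 37589552 to 37596059 of chromosome 14 (minus strand), had 103, 369 and 181 counts in the wild, knockout and labelled active libraries, or 5.67 (4.63 to 6.87), 7.19 (6.47 to 7.96) and 7.58 (6.51 to 8.76) CPM. The wild library was lowest, and the intervals overlap between each pair of libraries. The library labelled active stood above wild by a log2 fold change of 0.42 (0.06 to 0.78), 0.30 with totals, whereas knockout against wild was 0.34 (0.02 to 0.67) with TMM and -0.02 with totals. HOXB13, a homeobox factor of the posterior prostate lineage, had 11, 21 and 5 counts, or 0.605 (0.302 to 1.08), 0.409 (0.253 to 0.625) and 0.209 (0.0679 to 0.488) CPM. These intervals overlap between each pair of libraries. The log2 fold change of HOXB13 in the library labelled active against wild was -1.46, and its interval from -3.41 to 0.11 covers 0. For knockout against wild it was -0.60 (-1.68 to 0.63), or -0.95 with totals. For knockout against the library labelled active it was 0.86 (-0.48 to 2.73). A difference in HOXB13 was thus not detectable at this depth in any of these comparisons. HOXB13 spans 48724763 to 48728750 of chromosome 17 (minus strand).

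FOXC1 was close in the 3 libraries, as TP63 was. The gene, which spans 1609915 to 1613897 of chromosome 6 (plus strand), had 420 counts in the wild library (23.1 CPM, 21.0 to 25.4), 1443 in the knockout library (28.1 CPM, 26.7 to 29.6) and 633 in the library labelled active (26.5 CPM, 24.5 to 28.6). The wild library was again the lowest, and its interval overlapped that of the library labelled active. The log2 fold change of the library labelled active against wild was 0.20 (0.02 to 0.38), or 0.08 with totals, and that of knockout against wild was 0.28 (0.12 to 0.44) with TMM and -0.07 with totals.

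**Figure D2:**
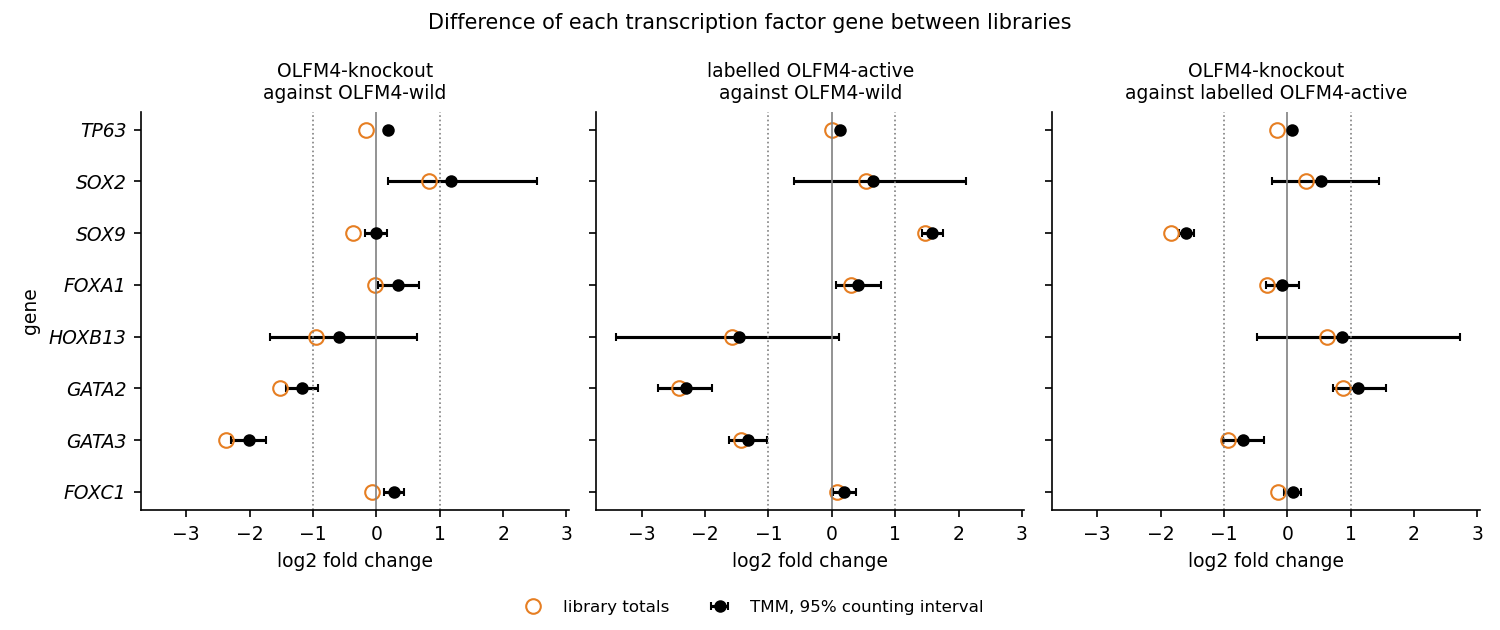
Log2 fold change with TMM (x axis) of each of the 8 genes (y axis) in the 3 library comparisons, with 95% counting intervals as bars. GATA2 and GATA3 lie below -1 against wild in both comparisons, SOX9 lies at 1.58 in the library labelled active, and TP63, FOXA1 and FOXC1 lie between -0.08 and 0.42 in each panel.

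Of the 8 genes, 6 had a mean level of 1 CPM or more and entered the counts past a log2 fold change of 1. SOX2 and HOXB13 did not. In knockout against wild, 0 of the 6 lay above 1, where 5.77% of all 16600 such genes did, and 2, GATA2 and GATA3, lay below -1, where 7.56% did. In the library labelled active against wild, 1 lay above 1 (SOX9, background 3.78%) and 2 lay below -1 (GATA2 and GATA3, background 6.73%). In knockout against the library labelled active, 1 lay above 1 (GATA2, background 2.95%) and 1 below -1 (SOX9, background 3.39%). The median of all 16600 genes was 0.10, 0.05 and 0.08 in these 3 comparisons, or -0.26, -0.07 and -0.16 with totals, and 56.7%, 53.9% and 56.7% of them lay above 0 with TMM. Without the level filter SOX2 would count as above 1 in the first comparison and HOXB13 as below -1 in the second. All other members lay within 1 of 0 in each comparison.

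Ratios within a library do not depend on library size or TMM. Per exon length, GATA3 stood to GATA2 at 1.74 (1.46 to 2.09) in the wild library, 0.973 (0.807 to 1.17) in the knockout library and 3.44 (2.53 to 4.72) in the library labelled active. The knockout library was the only one of the 3 in which the interval of this ratio included 1, and the intervals of the 3 libraries did not overlap. The ratio in the knockout library was 0.558 (0.430 to 0.724) times that in wild, and the ratio in the library labelled active was 1.97 (1.38 to 2.84) times that in wild.

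The ratio of SOX9 to SOX2 per length was 29.7 (14.9 to 69.3) in the wild library, 12.4 (9.41 to 16.6) in the knockout library and 55.2 (34.3 to 94.99) in the library labelled active. This ratio was 0.417 (0.170 to 0.892) times the wild ratio in knockout, and in knockout it was 0.224 (0.121 to 0.396) times the ratio in the library labelled active. The interval for the library labelled active against wild, 1.86 (0.688 to 4.58), included 1. The ratio of FOXC1 to FOXA1 was 4.52 (3.63 to 5.66), 4.33 (3.86 to 4.87) and 3.88 (3.28 to 4.60) in the wild, knockout and labelled active libraries. These values differed by less than their counting error in each pair of libraries. The ratio of TP63 to FOXA1 was 43.1, 38.8 and 35.1 in the same order, and each comparison of it had an interval that included 1. TP63 to HOXB13 was 278, 469 and 874, but HOXB13 had at most 21 counts, and the interval of the last value ran from 374 to 2691.

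**Figure D3:**
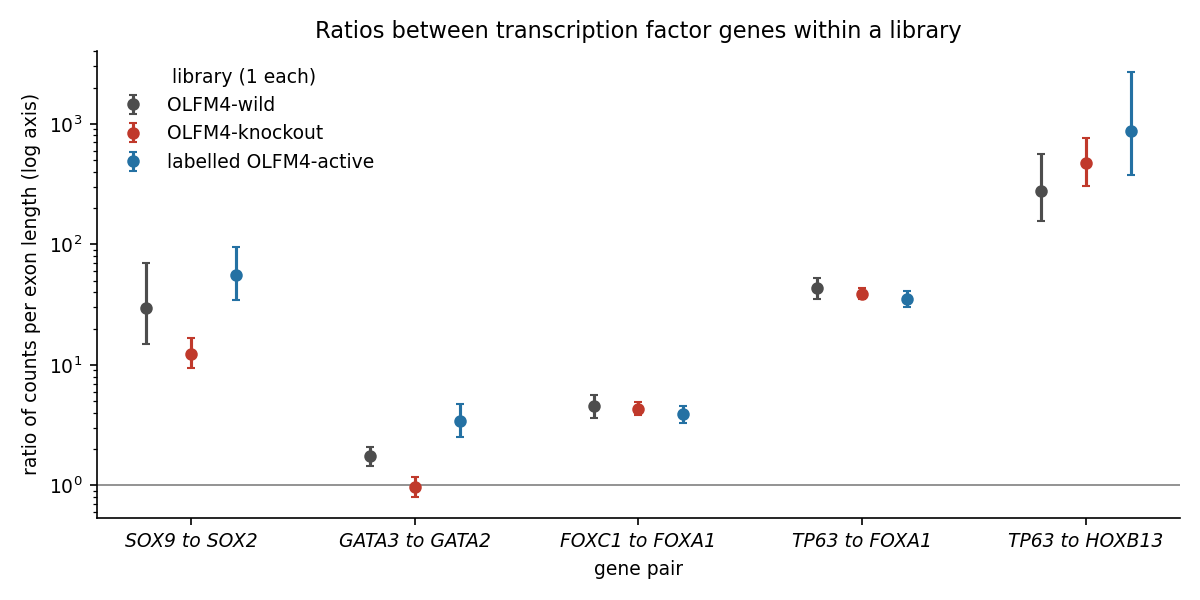
Ratio of counts per exon length between pairs of the transcription factor genes (x axis) on a log axis, with 1 point per library and 95% counting intervals as bars. GATA3 to GATA2 runs from 0.973 in knockout to 3.44 in the library labelled active, while FOXC1 to FOXA1 stays between 3.88 and 4.52.

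Levels between genes were compared as TPM, counts per union exon length scaled to a common sum, within one library at a time. TP63 was first in each library, at 110, 79.0 and 114 TPM, which placed it at rank 432, 530 and 450 among 19648 protein-coding genes. It held 73.7%, 79.1% and 69.3% of the summed TPM of the 8 genes. It exceeded the next gene 9.53 times (8.63 to 10.5) in the wild library and 8.95 times (8.48 to 9.44) in the knockout library, where FOXC1 was next, and 3.85 times (3.64 to 4.07) in the library labelled active, where SOX9 was next. After TP63 the wild library ran FOXC1, SOX9, GATA3, GATA2, FOXA1, HOXB13 and SOX2. FOXC1 and SOX9, SOX9 and GATA3, and HOXB13 and SOX2 were not separated by counting error there.

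The order below TP63 in the knockout library was FOXC1, SOX9, FOXA1, GATA2, GATA3, SOX2 and HOXB13, with GATA2 and GATA3 not separated. FOXA1 stood above both GATA genes here and below both in the wild library. In the library labelled active the order was SOX9, FOXC1, GATA3, FOXA1, GATA2, SOX2 and HOXB13, and GATA3 and FOXA1 were not separated. SOX9 thus stood second there, at rank 2340 among protein-coding genes against 6049 in wild. TPM was not compared between libraries, because noncoding genes held 65.0%, 71.5% and 64.9% of all TPM.

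Antisense and neighbouring genes were read with strand-specific counts. GATA2-AS1, a long noncoding RNA on the opposite strand that shares 78 exon bases with GATA2, had 84 counts in wild, 162 in knockout and 41 in the library labelled active, or 4.62, 3.16 and 1.72 CPM. The order of the 3 libraries was that of GATA2. Its log2 fold changes against wild were -0.55 (-0.94 to -0.15) and -1.42 (-2.01 to -0.87). GATA2 had 2.73, 1.77 and 1.49 counts for each GATA2-AS1 count, and the knockout value was 0.650 (0.467 to 0.901) times the wild value. Near the other members counts were few. GATA3-AS1 had 0, 12 and 0 counts, SOX9-AS1 5, 2 and 1, SOX2-OT, the transcript that spans SOX2, 1, 4 and 4, the microRNA gene MIR944 inside TP63 0, 8 and 2, and TTC6, which shares 16 exon bases with FOXA1 on the other strand, 8, 18 and 5.

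Within their families the members had different weight. TP73, the relative of TP63 that encodes p73, was lowest in the library labelled active, with 43.0, 32.2 and 20.01 CPM in the wild, knockout and labelled active libraries and a log2 fold change there of -1.10 (-1.27 to -0.94) against wild. In the GATA family 3 of 6 coding genes passed the level filter, and the third was GATA6, a factor of endoderm and heart, at 1.82, 1.17 and 1.80 CPM. GATA3 held 58.7%, 42.7% and 64.3% of the family's TPM and GATA2 held 33.6%, 43.9% and 18.7%. GATA2 was the larger of the pair only in knockout, by a margin within counting error.

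In the SOX family 7 of 19 coding genes passed the level filter. SOX9 held 11.1%, 8.38% and 23.2% of the family's TPM, and SOX15, a relative of SOX2, held the largest share, 44.4%, 66.6% and 50.4%. SOX15 had 30.6, 60.3 and 49.6 CPM. SOX12 was 24.9, 10.9 and 16.0 CPM, a log2 fold change of -1.20 (-1.38 to -1.01) in knockout against wild. SOX6, which works with SOX9 in cartilage, had 137, 308 and 71 counts, of which the last is 2.97 CPM, so it was lowest where SOX9 was highest, at -1.34 (-1.78 to -0.92) against wild. SOX4 was 34.2, 24.9 and 21.1 CPM, SOX13 38.8, 35.2 and 35.0 CPM and SOX7 7.37, 6.95 and 13.6 CPM. The family median log2 fold change was -0.14 in knockout and -0.15 in the library labelled active against wild, against 1.58 for SOX9 in the latter.

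Of 51 coding FOX genes 24 passed the filter. FOXM1, which drives mitotic genes, was first by TPM in each library and FOXK2 second. FOXM1 had 89.0, 55.8 and 87.2 CPM and FOXK2 had 115, 105 and 98.3 CPM. FOXC1 came 9th, 5th and 7th by TPM and FOXA1 17th, 16th and 17th. The family median was -0.49 in knockout against wild, with 8 of the 24 genes above 0, where 56.7% of all genes lay, among them FOXA1 and FOXC1 with TMM but not with totals. Of 39 coding HOX genes 20 passed, and HOXB13, which did not, ranked 29th, 29th and 30th. HOXD10, first in the family by TPM in each library, was 60.3, 50.1 and 46.3 CPM. HOXC13, a HOX gene of the same paralogue group as HOXB13, had 8.14, 21.2 and 19.1 CPM, with log2 fold changes of 1.37 (1.13 to 1.64) and 1.23 (0.96 to 1.51) against wild. Other genes of that group, named with their values known, did not all rise. HOXA13 had 13.9, 10.5 and 6.74 CPM, at -0.41 (-0.62 to -0.18) and -1.04 (-1.34 to -0.75). HOXD13 had 2.31, 3.94 and 3.81 CPM (0.75 and 0.71).

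**Figure D4:**
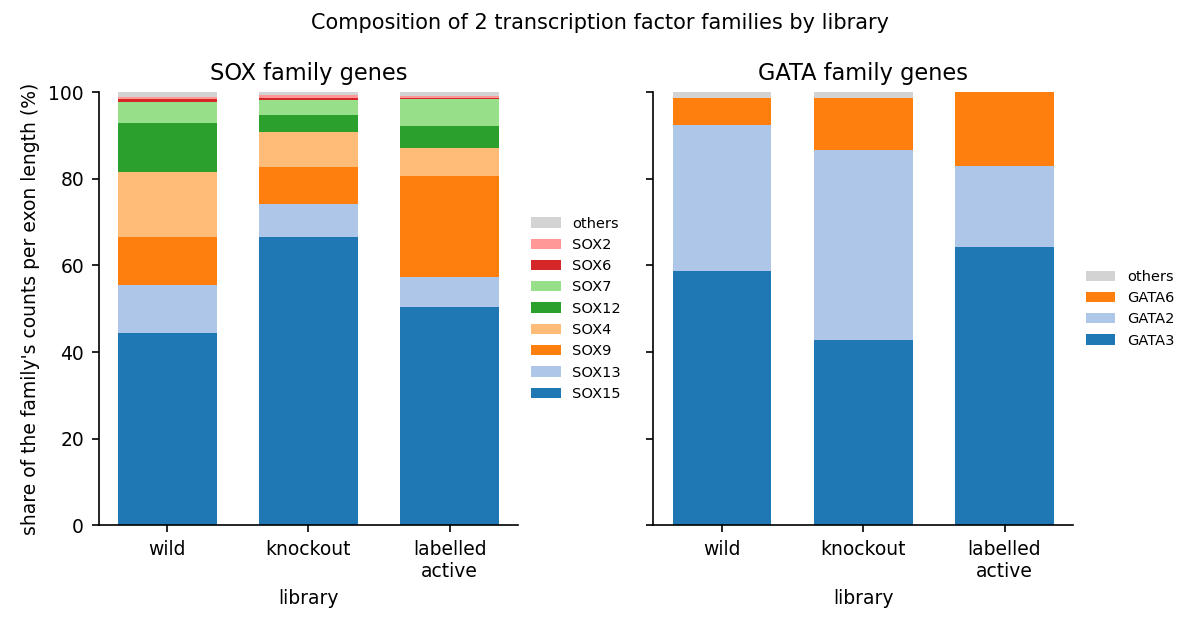
Share of each family's summed counts per exon length (y axis, percent) held by its genes in the 3 libraries (x axis), with 1 panel each for the SOX and GATA families. SOX9 holds 23.2% of the SOX family in the library labelled active, and GATA2 and GATA3 hold 43.9% and 42.7% in knockout.

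Other transcription factors of basal and squamous cells were described as a list of 21 genes, of which 19 passed the filter. Against wild, 5 of the 19 lay above 0 in knockout, where 56.7% of all genes did, and 2 lay below -1, where 7.56% did. The median was -0.23 against 0.10 over all genes. In the library labelled active 6 lay above 0 and 3 below -1, beside 53.9% and 6.73% of all genes, with a median of -0.48 against 0.05. EHF, an epithelial ETS factor, had 52.0, 8.59 and 6.07 CPM in the wild, knockout and labelled active libraries, log2 fold changes of -2.60 (-2.76 to -2.43) and -3.10 (-3.36 to -2.85). ELF3, another epithelial ETS factor, had 22.9, 9.21 and 5.32 CPM (-1.31 and -2.10). DLX3, a homeobox factor of the epidermis, had 29.4, 16.1 and 12.8 CPM (-0.88 and -1.20). EHF, ELF3 and DLX3 were thus highest in the wild library, as both GATA genes were. The list did not move together. KLF5, its most abundant gene and named here with its values known, had 474, 836 and 736 CPM (0.82 and 0.63). The summed level of the 21 genes was lowest in wild, at 1652, 1857 and 1784 CPM. TFAP2A, an AP-2 factor of ectoderm, was lower in knockout only, with 62.2, 33.1 and 67.2 CPM. TFAP2B was at 0 in all 3 libraries.

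Known target genes of p63 had a median above that of all genes in both comparisons against wild, while TP63 itself was close. Of 26 such genes all passed the filter, 19 lay above 0, 4 above 1 and 1 below -1 in knockout against wild, beside 56.7%, 5.77% and 7.56% of all genes. The median was 0.35 with TMM against 0.10 over all genes, and 0.00 with totals against -0.26. In the library labelled active 17 lay above 0, 2 above 1 and 2 below -1, beside 53.9%, 3.78% and 6.73% of all genes, and the median was 0.17. S100A2, a calcium-binding protein, had 294, 1288 and 594 CPM, log2 fold changes of 2.13 (2.09 to 2.17) and 1.02 (0.97 to 1.06). BMP7, a growth factor, had 16.3, 51.4 and 35.6 CPM (1.66 and 1.13). KRT14 and KRT5, the keratin pair of basal cells, lay at 1.27 and 1.15 in knockout and at 0.47 and 0.16 in the library labelled active. For comparison TP63 lay at 0.19 and 0.12.

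The androgen response genes, on which FOXA1, HOXB13 and GATA2 act in luminal cells, were sparsely detected. Of 19 such genes 10 passed the filter. KLK3, which encodes prostate-specific antigen, had 2, 0 and 0 counts, and KLK2, KLK4 and TRPM8 were at 0 in all 3 libraries. Of the 10 genes 5 lay above 0 in each comparison against wild, near the 56.7% and 53.9% of all genes. The medians were 0.10 in knockout, or -0.25 with totals, and -0.08 in the library labelled active, against 0.10, or -0.26 with totals, and 0.05 over all genes. NDRG1, which also answers to hypoxia, had 1100, 664 and 483 CPM (log2 fold changes -0.73 and -1.19), ABCC4, a transporter, 22.7, 35.9 and 39.6 CPM (0.66 and 0.80), ELL2, an elongation factor, 279, 395 and 369 CPM (0.50 and 0.40), and PMEPA1 99.4, 140.0 and 204 CPM (0.49 and 1.04).

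**Figure D5:**
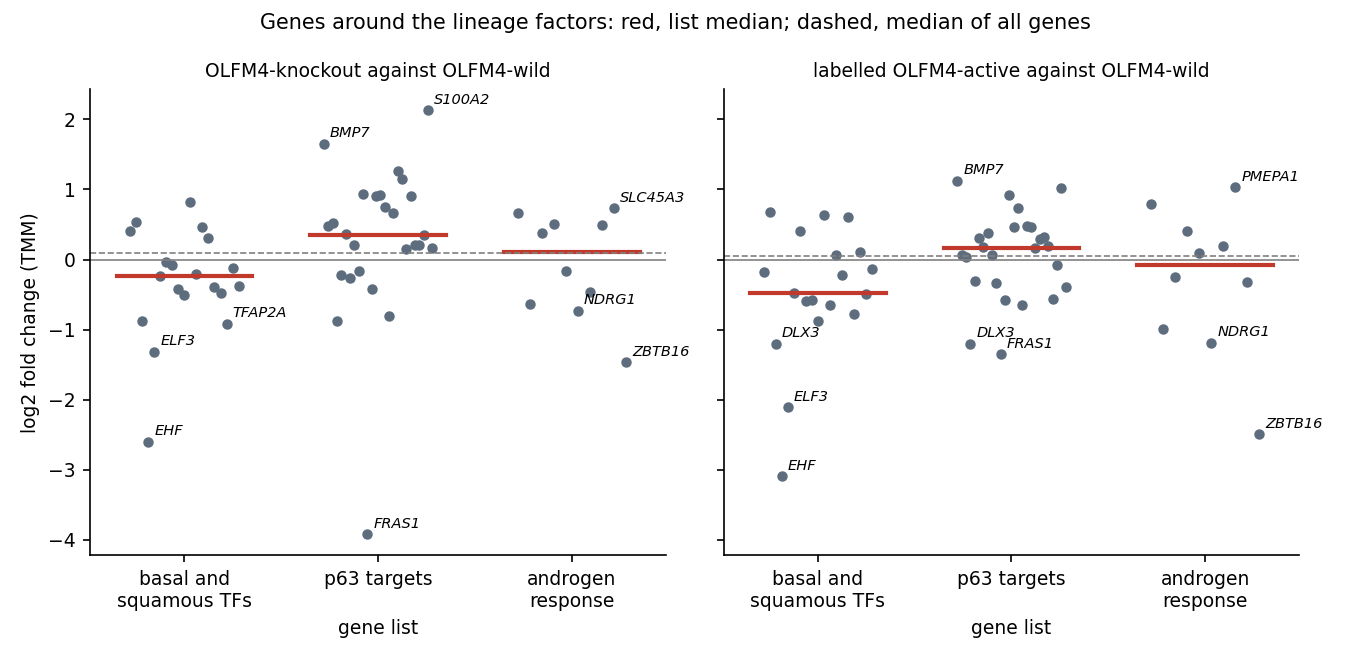
Log2 fold changes with TMM (y axis) of single genes of 3 lists (x axis), with 1 panel per comparison, the list median in red and the median of all genes dashed. The median of the basal and squamous factors lies below that of all genes and the median of the p63 targets above it, in both comparisons against wild.

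The marker lists set out which cells the libraries resemble. All 6 prostate basal markers were measured, and their summed level was 17605 CPM in wild, 39393 in knockout and 21024 in the library labelled active. KRT5 (12232, 27077 and 13686 CPM) and KRT14 (4006, 9666 and 5542 CPM) made up most of each sum. These keratins and ITGA6 are also among the p63 targets above, so the lists are not separate. In knockout against wild all 6 lay above 0 with TMM and 4 above 1, beside 56.7% and 5.77% of all genes. With totals only KRT15 stayed above 1, at 1.15, and KRT14 and KRT5 lay at 0.92 and 0.79. In the library labelled active against wild 5 of the 6 lay above 0 and 1 above 1 with TMM, beside 53.9% and 3.78%. KRT15 went the other way there, at -0.38 (-0.46 to -0.30). DKK3, a secreted Dickkopf family protein, lay at 0.07 with TMM and at -0.29 with totals. Of 8 luminal markers 5 passed the filter, with sums of 471, 429.7 and 312 CPM, of which keratins 8 and 18 made up nearly all. Of the 5, 1 lay above 0 in each comparison against wild, beside 56.7% and 53.9% of all genes. The prostate origin is taken from the name of the cell line and was not tested with these markers. The abundant ones were epithelial and basal genes, and KLK2 and KLK3 were at or near 0. Of 7 urothelial markers, relevant because GATA3 is also a bladder factor, 3 passed, UPK3A was at 0, and the sums were 16.3, 13.7 and 10.003 CPM. The markers did not move together. UPK3B had 5.67, 7.99 and 4.35 CPM and UPK2 2.81, 3.51 and 3.98 CPM, and the median of the 3 in knockout against wild was 0.31, with 2 above 0, or -0.0416 with totals. Of 9 neuroendocrine markers only ENO2 passed, NEUROD1, INSM1 and POU3F2 were at 0, and the sums were 14.8, 4.13 and 5.40 CPM. ENO2 made up most of each sum, at 12.8, 3.02 and 4.10 CPM. CHGA, under the filter, went the other way, with 0, 14 and 14 counts. Of 16 stromal, endothelial and leukocyte markers 4 passed, and COL3A1, LUM, DES, CDH5, CD3E and LYZ were at 0. Their sums were 58.6, 44.2 and 36.1 CPM, in the order of GATA2, but COL1A2 was higher in knockout (5.22 CPM) than in wild (2.75 CPM). DKK3, KRT15, UPK3B, UPK2, CHGA and COL1A2 were singled out with their values known. RWPE1 is a line of epithelial cells, and why single stromal, endothelial or leukocyte markers had counts was not tested.

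Genes that act with SOX2 and SOX9 elsewhere were mostly at or near 0. Of 10 pluripotency partners of SOX2 only ZFP42 passed, with 113, 1277 and 458 counts and log2 fold changes of 1.99 (1.72 to 2.29) and 1.62 (1.32 to 1.93) against wild. NANOG, LIN28B, UTF1, DPPA4, FGF4 and PRDM14 were at 0 in all 3 libraries. Of 9 cartilage targets of SOX9, 2 passed. COL2A1 had 6 counts in each library, or 0.330, 0.117 and 0.251 CPM, and -1.50 (-3.40 to 0.40) in knockout against wild. COL9A1 and HAPLN1 were at 0. MATN3, a cartilage matrix gene picked as COL2A1 was after its values were seen, had 10, 98 and 44 counts, or 0.550, 1.91 and 1.84 CPM. Its knockout level was thus close to that in the library labelled active, where SOX9 was 61.4 CPM against 20.4 in knockout. COL9A3, the other of the 2 that passed, had 15, 80 and 16 counts, or 0.826, 1.56 and 0.670 CPM. It was lowest in the library labelled active, where SOX9 was highest. Whether SOX9 acts on either gene was not tested.

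The protein-coding genes whose pattern was nearest to a member were found among 9661 genes at a mean level of 10 CPM or more, by Euclidean distance over the 2 log2 fold changes against wild, that is over 3 libraries. For TP63 they were SRC, LSR and DHX35, at distances of 0.0102 to 0.0143, and 298 genes lay within 0.1. FOXC1 had FBXO22, ECH1 and MIF4GD nearest and 326 genes within 0.1. The patterns of TP63 and FOXC1 were therefore shared by many genes. SOX9 had 0 genes within 0.1. Only 3.78% of all genes lay above 1 in the library labelled active against wild, and a fixed distance holds fewer genes there. The count of 0 therefore does not show that the SOX9 pattern is particular. Nearest to SOX9 were FAM98A at 0.327, NCL at 0.328 and KLF7 at 0.365. NCL, which encodes nucleolin, had 217, 213 and 518 CPM. The other members, under a mean of 10 CPM, were not compared.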

How the data were processed

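Total RNA of RWPE1 cells was depleted of ribosomal RNA and made into stranded libraries, 1 for each of 3 groups. The authors trimmed reads with cutadapt, aligned them to GRCh38 with HISAT2 and counted read pairs per gene with featureCounts, keeping unique, reversely stranded pairs, as the methods and the submitters' processing notes give. They deposited whole-number counts that are not normalized. The annotation release behind the counts is not given in the sources used here. Positions, exon lengths and gene types came from GENCODE version 44, which holds 56993 of the 58037 identifiers, and promoter windows from RefSeq. Gene-level counts miss reads shared with near-identical copies.

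Groups follow the sample titles. Libraries were scaled with TMM (edgeR 4.0.16; R 4.3.3) to factors of 1.11, 0.872 and 1.03, and log2 fold changes follow voom (limma 3.58.1) with an offset of 0.5 counts. With 1 library per group no test was fitted and genes were counted past a log2 fold change of 1 among those with a mean of at least 1 CPM. Intervals at 95% were conditional Clopper-Pearson intervals for fold changes and exact odds ratio intervals for ratios (scipy 1.17.1, pandas 2.3.3, numpy 2.4.6, Python 3.11.15; plots with matplotlib 3.10.9). TPM was used within a library only.

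Named genes were the 8 members, genes that overlap or start within 5 kb of them, relatives with a mean of at least 1 CPM (for FOX and HOX the 5 of highest mean CPM, of which not all are described), up to 4 genes of each list with the largest change in knockout against wild at a mean of at least 10 CPM with listed markers at 0, and the 3 nearest coding genes. The members and lists were chosen with earlier results of these data known. Some genes of the lists and families are not reported here and were left out of their counts, medians and sums.

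Alternatives were library totals, DESeq2 1.42.0 size factors, upper quartile factors, offsets of 1 and 5, sizes without the 10 most abundant genes, libraries thinned to 16309906 counts, a mean of 10 CPM or no filter, and the longest transcript as length. Tested on simulated data, the steps recovered 100% of 200 altered genes among 16483, set to a log2 difference of 2, in each comparison. Of 16283 unaltered genes, 5 lay past 1 in knockout against wild, 32 in labelled active against wild and 5 in knockout against labelled active. The simulation held counting error only, with library sizes given. It therefore checks the calculation, and neither the scaling nor variation between libraries.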

Additional observations from a re-analysis of the deposited data

How the results depend on the processing

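With 1 library per group and counting intervals only, nothing here separates the condition from the library, and genes under 1 CPM such as SOX2 and HOXB13 are limited by depth. The signs of GATA2, GATA3 and SOX9 past 1 held under every alternative that kept the gene: GATA2 ranged from -1.53 to -1.13 and GATA3 from -2.37 to -1.95 in knockout against wild, and in the library labelled active against wild GATA2 ranged from -2.41 to -2.08, GATA3 from -1.44 to -1.25 and SOX9 from 1.47 to 1.61.

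Library totals turned the sign in knockout against wild for TP63 (-0.16), FOXA1 (-0.0150) and FOXC1 (-0.0716), and for TP63 against the library labelled active (-0.17, with upper quartile factors -0.0349), since totals shift all genes down. In knockout against the library labelled active, FOXC1 went from 0.08 to -0.15 with totals, -0.0540 when thinned and -0.0200 with upper quartile factors, and FOXA1 from -0.08 to 0.0497 when thinned. Without the level filter, medians in knockout against wild became -0.51 for the SOX2 partners and -0.0446 for the cartilage targets. The latter includes COMP, at 0 in both of these libraries, whose value of -1.50 comes from the offset alone. GATA2 above 1 in knockout against the library labelled active was lost (0 genes) with totals, with thinned libraries and with a filter at 10 CPM, and that filter also left 0 members below -1 in both comparisons against wild, since it drops GATA2 and GATA3. Without a filter 1 member, SOX2, lay above 1 in knockout against wild. With the longest transcript as length, 2 members, GATA3 and FOXA1, swapped places in the library labelled active.

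Of all genes, those above 1 and below -1 numbered 957 and 1255 in knockout against wild, 627 and 1117 in the library labelled active against wild, and 490 and 563 in knockout against the library labelled active. In the same order they numbered 499 and 311, 249 and 264, and 127 and 206 with a filter at 10 CPM. With no filter they numbered 3338 and 9178, 4707 and 7134, and 4017 and 7466. That setting keeps genes at 0 in both compared libraries if the other library had counts. The offset alone puts such genes at -1.50 in knockout against wild and -1.10 in knockout against the library labelled active. The unfiltered counts below -1 in those comparisons therefore include genes with no reads in either library. With totals, genes above 1 and below -1 numbered 362 and 2350 in the first and 215 and 1160 in the last of these comparisons. No paired analysis was possible because each group has 1 library.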

Other observations

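Several genes outside the naming rule, picked after their values were seen, were highest in the wild library, as GATA2 and GATA3 were. Of all 16600 genes that passed the level filter, 7.56% lay below -1 in knockout against wild. In the library labelled active against wild, 6.73% did. The likeness of the picked genes to GATA2 and GATA3 is therefore not shown to be particular. ZBTB16, which encodes the transcriptional repressor PLZF and is induced by androgen and glucocorticoid, had 305, 312 and 71 counts in the wild, knockout and labelled active libraries, or 16.8, 6.08 and 2.97 CPM, and log2 fold changes of -1.47 (-1.70 to -1.23) and -2.49 (-2.89 to -2.12) against wild. PPARG, a nuclear receptor of fat and urothelium, had 84, 85 and 29 counts, with log2 fold changes of -1.48 (-1.93 to -1.03) and -1.91 (-2.59 to -1.30). UPK1A, a uroplakin of the bladder surface, had 49, 3 and 3 counts. The urothelial markers, PPARG and UPK1A among them, did not share this pattern. Of the 3 that passed the filter, only PPARG was highest in wild. UPK2 had 2.81, 3.51 and 3.98 CPM and UPK3B had 5.67, 7.99 and 4.35 CPM. ELF5, an ETS factor of mammary and basal epithelia, had 16, 0 and 0 counts. The smallest level treated as detected, 3 counts, was 0.0584 and 0.126 CPM in the knockout library and the library labelled active. FRAS1, a basement membrane gene among the p63 targets, had 45, 8 and 23 counts and was the only one of that list below -1 in knockout against wild, at -3.92 (-5.29 to -2.89).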
